A study of Mus musculus with 10 samples.

Results

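The regions described here are the intronic Qki-5 peaks of wild-type (WT) oligodendrocytes that lie outside promoters. Of the 7539 peaks called with the Qki-5 antibody in WT cells, those were taken that did not overlap the region within 2 kb of any transcription start site (TSS) of the GENCODE M21 basic annotation, and whose summit, the position of highest signal, fell inside an annotated gene but in no exon. This gave 1498 peaks, or 19.9% of the list, beside 4594 promoter peaks, 1296 intergenic peaks and 151 exonic peaks. No value of Pol II or of the knockout cells was used to choose them. The WT Qki-5 and Srebp2 lists used here hold fewer peaks than the totals stated by the study, so every count and share holds for these lists only.

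In the study, chromatin immunoprecipitation and sequencing (ChIP-seq) was performed for RNA polymerase II (Pol II), Qki-5 and Srebp2 in oligodendrocytes that had been differentiated from neural stem cells in medium with the thyroid hormone T3. WT and *Qk*-/- cells were compared, with 1 library for each antibody and genotype, so there are no replicates and no test was made between genotypes. The cells were of an FvB/C57BL6 hybrid strain, at passage 7 for Qki-5 and Pol II and passage 8 for Srebp2, and the WT Qki-5 and Pol II libraries shared an input. According to the methods, neural stem cells came from whole brains of *Nestin*-CreERT2;*Qk* L/L pups on postnatal day 1, a strain in which Cre is driven by the *Nestin* promoter and acts on *Qk* once 4-hydroxytamoxifen is given, which was done in culture. The Qki-5 antibody was raised by the study against a peptide of that isoform. Each deposited peak carries its fold enrichment over input and a −log10 q-value, and a peak missing from a list did not pass the caller's threshold, which does not show that the protein was absent.

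Qki is an RNA-binding protein of the STAR family that is best known for its part in splicing and mRNA stability in myelinating glia, and Qki-5 is its nuclear isoform. Introns hold many enhancers, short stretches of DNA at which transcription factors bind and from which they can act on a promoter at a distance. Pol II is found on introns both while it transcribes the gene and at active enhancers, where it makes short transcripts. A ChIP-seq peak of an RNA-binding protein on an intron can likewise come from DNA or from nascent RNA crosslinked to it, and the lists do not separate these.

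Windows of 201 bp centred on the summits of 8 of the peaks are shown on the plus strand of mm10, read from the RefSeq copy of that build, because short sites near the summits are counted among the results. Capitals mark the nuclear factor I core (TTGGCA or its complement TGCCAA), the E-box CAGCTG, the AP-1 site TGANTCA and the Sox site (ACAAAG or CTTTGT). The windows of *Thsd4* and *Gm12695* belong to strong peaks with Pol II, those of *Sim1* and *Mov10l1* to peaks that were also called in *Qk*-/- cells, and that of *Nfib* to the strongest peak in a gene of the nuclear factor I, Sox, Rfx, C/EBP and Nrf1 families. The windows of *Tnr*, *Myh9* and *Epha5* were chosen because they hold a nuclear factor I core.
Thsd4 (chr9:60311765-60311965): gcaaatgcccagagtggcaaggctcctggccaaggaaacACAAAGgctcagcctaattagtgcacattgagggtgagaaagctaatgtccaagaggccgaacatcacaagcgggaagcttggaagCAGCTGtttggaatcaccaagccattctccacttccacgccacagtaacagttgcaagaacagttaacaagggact
Gm12695 (chr4:96725810-96726010): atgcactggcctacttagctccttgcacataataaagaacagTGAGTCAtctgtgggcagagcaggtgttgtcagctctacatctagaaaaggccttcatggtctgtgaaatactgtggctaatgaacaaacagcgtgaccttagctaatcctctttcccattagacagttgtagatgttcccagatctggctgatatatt
Sim1 (chr10:50903543-50903743): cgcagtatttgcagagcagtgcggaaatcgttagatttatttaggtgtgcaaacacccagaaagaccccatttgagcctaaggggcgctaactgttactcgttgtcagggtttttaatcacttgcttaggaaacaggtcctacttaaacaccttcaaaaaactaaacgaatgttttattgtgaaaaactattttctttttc
Mov10l1 (chr15:89048721-89048921): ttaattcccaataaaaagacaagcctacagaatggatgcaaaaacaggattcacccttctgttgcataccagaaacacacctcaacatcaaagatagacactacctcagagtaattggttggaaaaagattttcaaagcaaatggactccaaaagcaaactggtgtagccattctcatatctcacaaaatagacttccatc
Nfib (chr4:82400071-82400271): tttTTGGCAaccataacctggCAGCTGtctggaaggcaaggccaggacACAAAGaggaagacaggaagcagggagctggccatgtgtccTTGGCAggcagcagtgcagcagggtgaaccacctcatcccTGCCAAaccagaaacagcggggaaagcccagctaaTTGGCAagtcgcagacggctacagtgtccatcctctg
Tnr (chr1:159661302-159661502): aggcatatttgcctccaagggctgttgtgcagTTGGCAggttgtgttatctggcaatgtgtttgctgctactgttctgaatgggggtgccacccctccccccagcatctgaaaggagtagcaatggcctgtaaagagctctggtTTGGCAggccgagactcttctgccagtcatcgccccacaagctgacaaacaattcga
Myh9 (chr15:77820345-77820545): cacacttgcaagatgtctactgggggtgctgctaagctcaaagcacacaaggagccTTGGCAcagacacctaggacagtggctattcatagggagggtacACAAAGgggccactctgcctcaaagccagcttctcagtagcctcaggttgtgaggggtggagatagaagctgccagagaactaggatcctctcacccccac
Epha5 (chr5:84153149-84153349): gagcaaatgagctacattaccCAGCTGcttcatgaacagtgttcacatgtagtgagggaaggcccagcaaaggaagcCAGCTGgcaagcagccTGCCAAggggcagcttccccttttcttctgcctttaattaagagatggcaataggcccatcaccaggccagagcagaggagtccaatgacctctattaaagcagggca
The *Nfib* window holds 4 nuclear factor I cores, 1 E-box and 1 Sox site, and the *Epha5* window holds 1 core and 2 E-boxes. The *Sim1* and *Mov10l1* windows hold none of the marked sites, and 75.1% of the *Mov10l1* window is masked as repeat, against 0.0% of the *Thsd4* window. The windows of peaks in *Isl2* and *Nfix*, not shown, hold none of the marked sites either. The *Nfix* peak was 7.27-fold enriched, overlapped WT Pol II and was not called in *Qk*-/- cells, so windows without marked sites are not limited to peaks called there.

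The labelled cell type was checked through Pol II peaks at promoters, since the lists hold no expression. Of 20 myelin and mature oligodendrocyte genes, only *Cnp* had a WT Pol II peak at a promoter. A Pol II peak was present at 15 of 20 promoters of oligodendrocyte precursor genes, 20 of 20 of neural stem cell genes, 12 of 15 of astrocyte genes, 5 of 15 of neuron genes and 1 of 10 of microglia genes. Promoters of the myelin genes *Mbp*, *Mag* and *Mog* were thus without a called Pol II peak in cells labelled as oligodendrocytes, while precursor, stem cell and astrocyte genes had one. The part of these other cell types in the results was not tested.

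The intronic peaks were narrow and of moderate strength. Their fold enrichment had a median of 5.61, a middle range of 4.78 to 6.63 and extremes of 2.62 and 19.7. The median was 5.66 for the intergenic peaks and 5.11 for the promoter peaks. The median width was 334 bp, and 24 of the 1498 peaks were wider than 1 kb. The strongest peak lay in intron 6 of *Thsd4*, which encodes a thrombospondin-repeat protein of the extracellular matrix, at chr9:60311594-60312179, with a 19.7-fold enrichment and a summit 170645 bp from the nearest TSS of the gene. It was followed by a peak in intron 1 of *Sim1*, a transcription factor of hypothalamic neurons, at 16.1-fold enrichment, and one in the predicted gene *Gm12695* at 14.8-fold. The next 7 lay in *Isl2*, a LIM-homeodomain factor (14.4-fold), *Zcchc24* (13.6-fold), *Gata4*, a zinc finger factor of heart and endoderm (13.3-fold), *Mov10l1*, an RNA helicase of germ cells (13.3-fold), the lincRNA gene *Gm29183* (13.1-fold), *Nxn*, a thioredoxin-family protein (12.8-fold), and the lincRNA gene *Gm48854* (12.5-fold). Of these 10 peaks, 6 overlapped a WT Pol II peak and the other 4, in *Sim1*, *Isl2*, *Gata4* and *Mov10l1*, were also called in *Qk*-/- cells.

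Most intronic Qki-5 peaks coincided with Pol II. A WT Pol II peak overlapped 927 of the 1498 by at least 1 bp, which is 61.9% (95% Clopper-Pearson interval 59.4 to 64.4). Over all WT Qki-5 peaks this share was 79.3%, and it was 92.0% of promoter peaks and 56.6% of intergenic peaks. The share in introns was below that at promoters (odds ratio 0.141 by Fisher's exact test, with an adjusted p = 5.9e-150) and slightly above that of intergenic peaks (odds ratio 1.24, adjusted p = 0.0054). The second difference was lost in the same exact test when only peaks of at least 5-fold enrichment were kept in every list (odds ratio 1.03, adjusted p = 0.742), and when peaks also called in *Qk*-/- cells were left out, an alternative chosen after seeing the data (odds ratio 1.17, adjusted p = 0.0873, p = 0.0436 before adjustment). These two-sided tests compare classes of peaks within these libraries, where peaks are not replicates, and neighbouring peaks can share a Pol II peak: the 927 met 893 distinct Pol II peaks. With both lists limited to at least 5-fold enrichment, the intronic share was 38.8%.

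**Figure D1:**
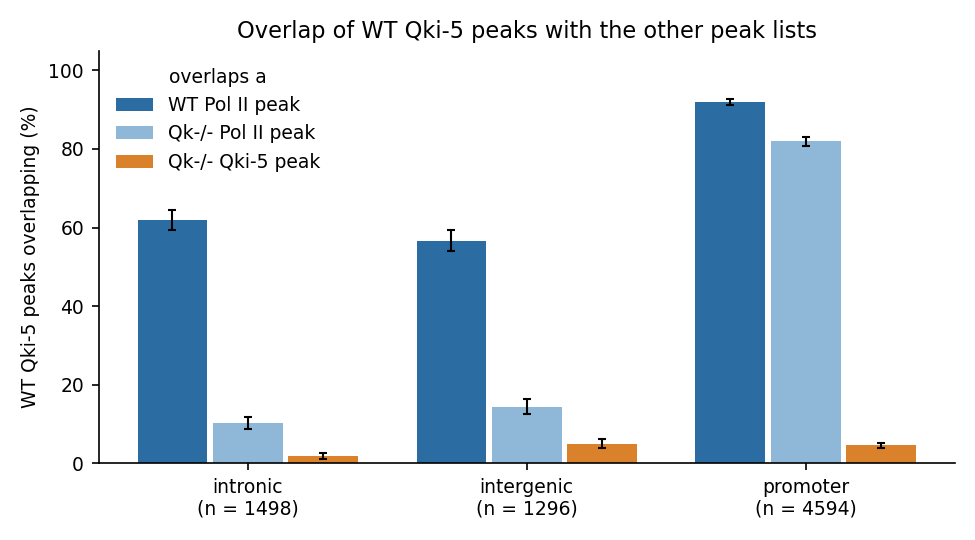
Share of WT Qki-5 peaks (y axis, percent) that overlap a WT Pol II, Qk-/- Pol II or Qk-/- Qki-5 peak, for intronic, intergenic and promoter peaks, with 95% Clopper-Pearson intervals for the counting of peaks. Intronic peaks reach 61.9% for WT Pol II but 10.1% for Qk-/- Pol II, whereas promoter peaks stay at 92.0% and 82.0%.

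For comparison, positions were taken at every 1 kb along the same kind of intron, which gave 1010506 windows of 334 bp. Of these, 0.911% overlapped a WT Pol II peak, and 2.26% did so among windows in the genes that hold an intronic Qki-5 peak. Where the host promoter had a Pol II peak, 70.3% of the Qki-5 peaks and 1.52% of the windows overlapped a WT Pol II peak of any class. Where it had none, the shares were 40.3% and 0.16%. For the 927 peaks with Pol II, the Pol II summit was a median of 130 bp from the Qki-5 summit. It lay within 100 bp for 43.3% of the 927 and within 500 bp for 87.9%. These peaks were taken because they overlap a Pol II peak, which itself limits the distance. No background was taken for it, so the distance does not show that the summits lie closer than overlap requires. Both signals of WT cells were called against the same input, and its part in their overlap was not tested.

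Stronger Qki-5 peaks had Pol II more often. When the peaks were split by fold enrichment into 5 equal groups, 71.7% of the strongest group (6.97 to 19.7) overlapped Pol II (66.2 to 76.7) and 53.0% of the weakest group (2.62 to 4.54) did (47.2 to 58.8). The overlap also varied with the distance to the nearest TSS, from 60.6% at 2 to 5 kb, 66.1% at 5 to 20 kb and 59.9% at 20 to 100 kb to 43.5% of the 62 peaks beyond 100 kb. Seen from Pol II, 831 of 8612 intronic WT Pol II peaks, or 9.65%, overlapped an intronic Qki-5 peak. Those 831 were 5.23-fold enriched for Pol II at the median and 616 bp wide, against 4.25-fold and 389 bp for the 7770 intronic Pol II peaks with no Qki-5 peak.

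The 10 intronic Qki-5 peaks under the strongest Pol II peaks lay beside highly occupied promoters or inside broad domains. The strongest was at *Junb*, which encodes an AP-1 subunit, where a 7.96-fold Qki-5 peak lay 2192 bp from the summit of a 112-fold Pol II peak. *Junb* is a short gene, and this Qki-5 peak lay in its gene record but outside its basic transcripts. The antisense gene *Frmd8os* followed, with a 3.98-fold Qki-5 peak under a Pol II peak of 71.1-fold that spanned 35940 bp. *Klf6*, an immediate early zinc finger factor, had a 5.23-fold Qki-5 peak in intron 1 under a 47.5-fold Pol II peak. *Zcchc24* had 2 Qki-5 peaks in intron 1 (13.6-fold and 4.78-fold) under one Pol II peak of 42.3-fold. The others were in *C130071C03Rik*, *Gm28863* (2 peaks), *Gm49450* and *Gm26759*, with Pol II at 48.5-fold to 51.6-fold. In all 10 the Pol II summit lay more than 2 kb away. Qki-5 peaks within 2 kb of a TSS had been left out, and these 10 were picked by Pol II strength. The distance therefore depends on the choice of peaks and is not set against the median of 130 bp.

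Few of the intronic peaks were called in *Qk*-/- cells, the control for the antibody. The *Qk*-/- Qki-5 list held 427 peaks, of which 49 were intronic by the same rule. A *Qk*-/- Qki-5 peak overlapped 26 of the 1498 WT peaks, or 1.74% (1.14 to 2.53), while 4.06% of all WT Qki-5 peaks, 4.53% of promoter peaks and 4.86% of intergenic peaks had such an overlap. The share was below that of promoter peaks (odds ratio 0.372 by Fisher's exact test, with an adjusted p = 4.71e-07) and below that of intergenic peaks (odds ratio 0.346, adjusted p = 5.06e-06). It was 0.868% when most of the WT peak, at least 0.5 of its length, had to be covered, and both differences then still passed the test.

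The 26 peaks differed from the rest of the intronic set in several measures. Only 3 of them, in *Spon1*, *9530059O14Rik* and *Zic1*, overlapped WT Pol II (11.5%, 2.45 to 30.2), against 924 of the other 1472 (62.8%, 60.2 to 65.2). The host promoter had a Pol II peak for 7 of 26, against 72.8% of the others. Their WT fold enrichment had a median of 7.13 against 5.61, and 15 of the 26 were among the 300 strongest intronic peaks. In 14 of the 26 the fold value listed in *Qk*-/- cells was the higher, although the lists were made against different inputs and their fold values are not on a common scale. The lower share with WT Pol II was not particular to introns. Of intergenic peaks also called in *Qk*-/- cells, 11.1% overlapped WT Pol II, against 59.0% of those not called there. For promoter peaks the shares were 60.1% and 93.5%.

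Ordered by WT fold enrichment, the 10 strongest of the 26 lay in *Sim1* (16.1-fold in WT and 10.2-fold in *Qk*-/-), *Isl2* (14.4 and 8.03), *Mov10l1* (13.3 and 16.2), *Gata4* (13.3 and 6.27), *Lmx1b*, a LIM-homeodomain factor (12 and 6.27), *Spon1*, an extracellular matrix protein (10.7 and 6.22), *Nr6a1*, an orphan nuclear receptor (10.1 and 6.27), *Efemp1*, a fibulin (9.2 and 4.39), *Dlgap2*, a postsynaptic scaffold (8.79 and 18.2), and *Htr4*, a serotonin receptor (8.3 and 5.86). A second *Sim1* peak of 5.66-fold was also among the 26. Sequence under the 26 summits had a median GC content of 41.8%, against 52.2% for all 1498, and 10 of the 26 windows were mostly repeat (38.5%), against 2.8% of all. Of the 26 windows 5 were rich in CpG (over 50% GC and a CpG ratio over 0.6), or 19.2%, against 5.27% of all.

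Pol II calls at these regions were much rarer in *Qk*-/- cells. A *Qk*-/- Pol II peak overlapped 152 of the 1498, or 10.1% (8.66 to 11.8), while 55.0% of all WT Qki-5 peaks, 82.0% of promoter peaks and 14.3% of intergenic peaks overlapped one. With at least 5-fold enrichment in both lists the intronic share was 6.15%. Of the 927 peaks with WT Pol II, 149 (16.1%) also had *Qk*-/- Pol II, against 25.2% of intergenic and 89.0% of promoter peaks with WT Pol II. Only 3 peaks had Pol II in *Qk*-/- cells without one in WT. The *Qk*-/- Pol II list was shorter as a whole, with 12835 peaks against 32280, and 33.8% of all WT Pol II peaks overlapped one of its peaks. With 1 library per genotype and unknown depth, a difference between libraries and one between genotypes cannot be told apart.

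The drop in calls was not limited to Pol II peaks with Qki-5. Of the 831 intronic WT Pol II peaks over an intronic Qki-5 peak, 107 (12.9%, 10.7 to 15.3) were also called in *Qk*-/- cells, against 313 of 7770 without Qki-5 (4.03%, 3.6 to 4.49). The peaks with Qki-5 were the stronger ones in WT, so the shares were also taken within 4 groups of WT Pol II fold enrichment. In the strongest group (5.12 to 37.7) they were 22.0% (18.2 to 26.3) with Qki-5 and 13.7% (12.1 to 15.4) without. In the next group (4.27 to 5.11) they were 4.29% (1.74 to 8.65) and 2.44% (1.76 to 3.3). In the one after it (3.62 to 4.25) they were 2.94% (0.807 to 7.36) and 1.32% (0.889 to 1.87). In the weakest group (1.99 to 3.61) they were 0.99% and 0.563%. The intervals overlap in every group but the strongest. Pol II peaks with Qki-5 were also wider, and the part of width in these shares was not tested.

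**Figure D2:**
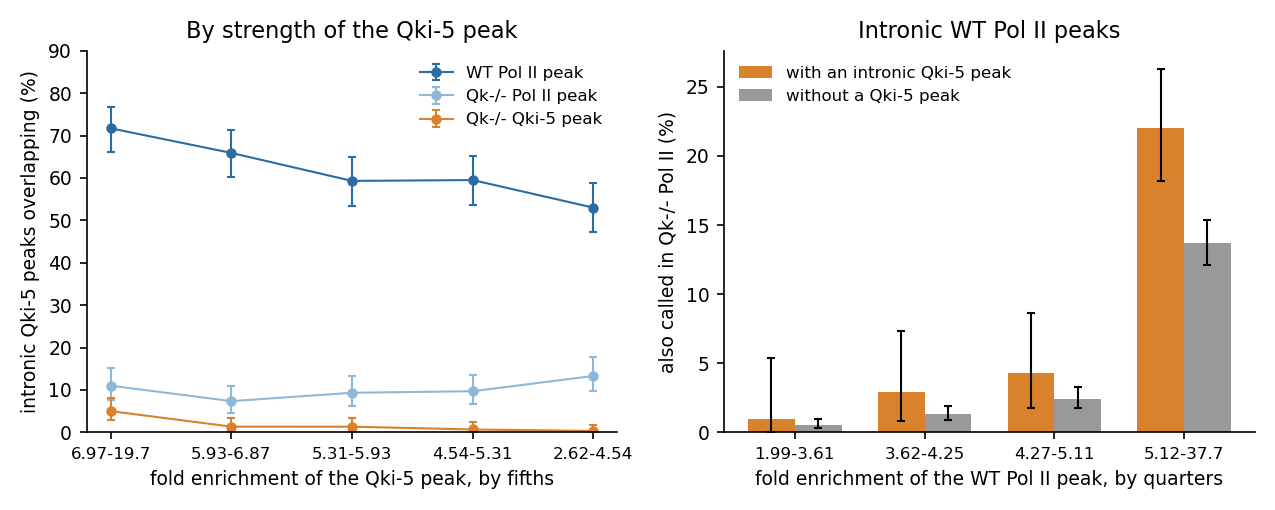
Left, share of intronic Qki-5 peaks (percent) that overlap each other list, by 5 groups of Qki-5 fold enrichment from strongest to weakest, where WT Pol II goes from 71.7% to 53.0%. Right, share of intronic WT Pol II peaks also called in Qk-/- cells (percent), by 4 groups of Pol II fold enrichment, with and without an intronic Qki-5 peak, where the strongest group shows 22.0% and 13.7%; bars are 95% Clopper-Pearson intervals.

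No intronic Qki-5 peak overlapped a Srebp2 peak in either genotype. The count of 0 of 1498 allows a share of up to 0.2% by the rule of 3 counts. Overlap with WT Srebp2 was rare in every class, at 0.631% of promoter peaks, 0.231% of intergenic peaks and 0.424% of all WT Qki-5 peaks. Since the Srebp2 lists used here hold only 77 peaks in WT and 28 in *Qk*-/-, the count of 0 says little about Srebp2 at these regions.

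Within their host genes the peaks were spread over the whole gene body, with more in the first intron than its length gives. Positions could be placed for 1426 of the 1498, and the other 72 lay in a gene record but in no basic transcript of that gene, while all 72 lay in a transcript of the comprehensive annotation. The first intron held 508 of the 1426 (35.6%, 33.1 to 38.2), against 26.1% of the positions taken every 1 kb and 31.2% of intronic Pol II peaks. Introns 4 and later held 33.3%, against 45.0% of positions and 42.9% of Pol II peaks. The median position was at 49.7% of the gene from its 5′ end, close to the 50.9% of the positions, whereas intronic Pol II peaks had a median of 54.4%.

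Qki-5 and Pol II peaks in introns differed in their distances to other features. The nearest TSS of any gene was a median of 16.2 kb from the Qki-5 summits, 20.5 kb from the positions and 10.5 kb from the Pol II summits. The nearest exon edge of the host transcript was a median of 5.7 kb away, against 5.47 kb for the positions and 2.34 kb for Pol II. Only 8.13% of the Qki-5 summits lay within 500 bp of an exon, against 12.8% of the positions and 22.9% of the Pol II summits. The introns differed in length as well, with a median of 28.3 kb for Qki-5 peaks and for the positions and 10.9 kb for Pol II peaks, and the part of intron length in these distances was not tested. The comprehensive annotation holds more start sites than the basic one: 177 of the 1498 (11.8%) overlapped the 2-kb region around a TSS of the comprehensive annotation, and 71.2% of those overlapped WT Pol II against 60.6% of the remaining 1321.

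**Figure D3:**
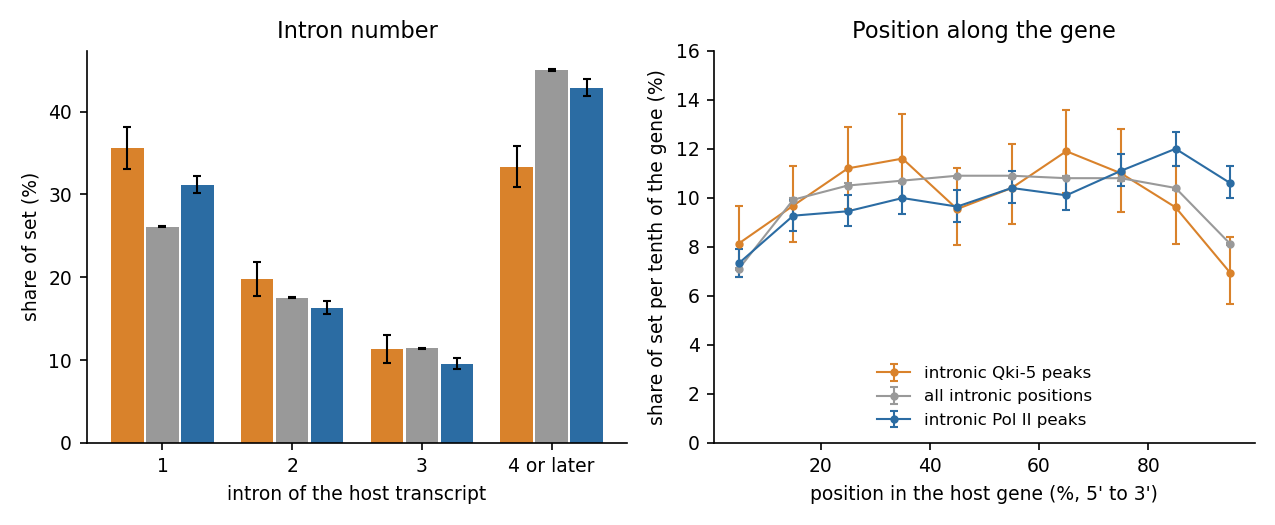
Left, share of each set (percent) by intron number; right, share in each of 10 equal parts of the host gene (percent) from 5′ to 3′, for intronic Qki-5 peaks (orange), positions every 1 kb of intron (grey) and intronic Pol II peaks (blue), with 95% Clopper-Pearson intervals. The first intron holds 35.6% of Qki-5 peaks and 26.1% of positions, and the last of the 10 parts holds 6.94% of Qki-5 peaks and 10.6% of Pol II peaks.

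The 1498 peaks lay in 1093 host genes, of which 834 held 1 peak and 259 held 2 or more, with 664 peaks between them. Of 23418 genes with intron outside promoters, 4.67% hosted a peak, and of the 11357 with a WT Pol II peak at the promoter, 6.63% did. Protein-coding genes made up 919 of the hosts (84.1%) and lincRNA genes 115 (10.5%). Hosts were long, with a median of 101 kb against 22.0 kb for all genes with such intron, and a longer gene offers more room for a peak. Per length of intron, there were 1.94 peaks per Mb in genes with a Pol II peak at the promoter and 0.923 per Mb in genes without.

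Promoters of the host genes were occupied more often than those of genes at large. A WT Pol II peak lay at the promoter of 753 of 1093 hosts (68.9%, 66.1 to 71.6), against 48.5% of the 23418 genes. A Qki-5 peak lay at the promoter of 325 hosts (29.7%, 27.0 to 32.5), against 17.8%, and 18.1% of hosts had one when both peaks had to be at least 5-fold enriched. Among genes with promoter Pol II this second difference was small, 38.5% of hosts (35.0 to 42.1) against 35.3% of genes. Of the 753 hosts with WT Pol II at the promoter, 85.3% also had a *Qk*-/- Pol II peak there, close to the 85.2% of all such genes, although few of their intronic Pol II peaks were called in *Qk*-/- cells.

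The hosts with 5 or more peaks were 13 genes with 84 peaks, of which 57 overlapped WT Pol II. *Cp*, which encodes the copper-carrying ferroxidase ceruloplasmin, had the densest group, with 6 peaks in 29 kb of intron, or 20.7 per 100 kb. They were 10.9-, 7.82-, 6.12-, 5.7-, 3.8- and 3.42-fold enriched. All 6 overlapped WT Pol II and all 6 overlapped *Qk*-/- Pol II. A further peak, 8800 bp wide and 12.4-fold enriched, lay in the records of both *Cp* and *Hps3* and was counted under *Hps3*. *Lrig1*, a negative regulator of epidermal growth factor receptors, had 6 peaks from 5.06-fold to 9.29-fold, all with WT Pol II and 4 with *Qk*-/- Pol II. *Nmnat2*, an NAD-synthesizing enzyme needed for axon survival, had 7 peaks from 3.93-fold to 8.02-fold, all with WT Pol II and none with *Qk*-/- Pol II, and its promoter had Pol II in WT cells only.

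Among regulators of transcription and growth, *Zbtb20*, a zinc finger factor, had 6 peaks, *Vgll4*, a cofactor of Tead factors, had 6, and *Wwc1*, an upstream member of the Hippo pathway, had 5, and all of these overlapped WT Pol II. The 5 peaks of *E130114P18Rik* also did, and *Camta1*, a calmodulin-binding transcription factor, had 3 of 5 with Pol II. *Syn3*, a synapsin, had 2 of 7. In contrast, *Mir670hg*, the host transcript of a microRNA, had Pol II at 1 of its 7 peaks and *Gata4* at 0 of 5, and neither promoter had a Pol II peak. The *Gata4* peaks of 13.3-, 7.82-, 6.72- and 5.89-fold lay in its gene record but in none of its basic transcripts. The same held for the 8.65-fold peak of *E130114P18Rik* and the 3.98-fold peak of *Vgll4*. Among the 259 hosts with several peaks, every peak had Pol II in 127 and none had it in 45.

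**Figure D4:**
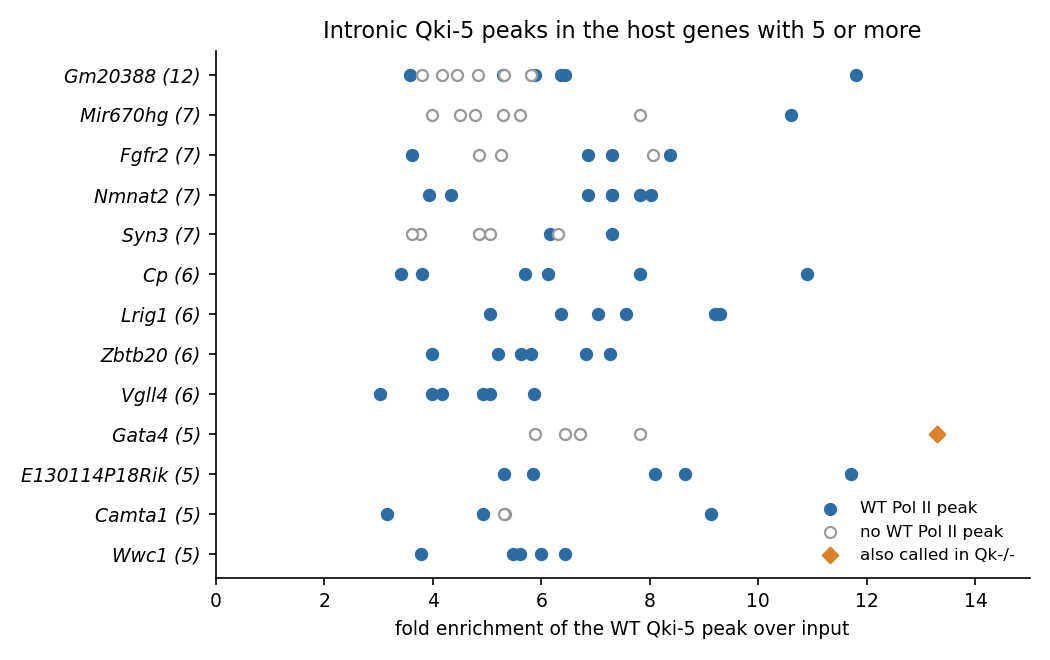
Fold enrichment over input (x axis) of each intronic Qki-5 peak in the 13 host genes with 5 or more, with the number of peaks in brackets; filled circles overlap a WT Pol II peak, open circles do not, and diamonds were also called in Qk-/- cells. All peaks of Cp, Lrig1, Nmnat2, Zbtb20, Vgll4, E130114P18Rik and Wwc1 have Pol II, and no peak of Gata4 does.

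The other 2 counts rest on gene records that reach far beyond the usual gene. *Gm20388* held 12 peaks, but its single basic transcript spans 4435 kb, and 7 of the 12 also lay in the record of *Gse1*. *Fgfr2*, a receptor of fibroblast growth factors, held 7, but 1 of its 4 basic transcripts extends the record to 2961 kb. Only 1 of the 7 peaks, at chr7:130215264-130216033 with 6.87-fold enrichment and WT Pol II, lay in the 104 kb that the other transcripts span.

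The hosts were then read against gene lists, where 4.67% of all genes with eligible intron were hosts. Across all lists, 63 genes were hosts of 95 peaks, and 72 of those peaks (75.8%) overlapped WT Pol II. The share was 61.9% over all intronic Qki-5 peaks and 70.3% where the host promoter had Pol II. In the list of nuclear factor I, Sox, Rfx, C/EBP and Nrf1 factors, 9 of 14 genes with enough intron were hosts, with 14 peaks, 11 of them with WT Pol II. These included every nuclear factor I gene. *Nfib* had 3 peaks (7.57-, 6.16- and 3.49-fold), the first 2 of them with Pol II. *Nfia* had 2 (5.81- and 5.53-fold, both with Pol II), *Nfix* had 1 of 7.27-fold and *Nfic* had 1 of 4.36-fold, both with Pol II. *Sox5* had 2 peaks, *Sox6* 1, *Rfx2* 1, *Rfx3* 1 and *Rfx4* 2. These lists were drawn up with earlier results of these data known, and long genes have more room for a peak, so nothing particular to a list follows from its count.

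In the list of Notch, TGF-beta, Wnt, Fgf and Hippo signalling, 10 of 29 genes were hosts, with 23 peaks. Of these, 17 overlapped WT Pol II and 5 overlapped *Qk*-/- Pol II, where the shares over all intronic Qki-5 peaks were 61.9% and 10.1%. *Notch2*, a receptor that keeps neural stem cells undifferentiated, had 2 peaks in intron 1 (9.29- and 4.73-fold), both with WT and *Qk*-/- Pol II. *Notch1* had 2 (6.86- and 3.19-fold), both with WT Pol II and the stronger with *Qk*-/- Pol II. *Maml2*, a coactivator of Notch, had 4 from 3.34-fold to 6.31-fold, and *Maml3* had 1 of 4.8-fold. *Tead1*, the DNA-binding partner of Yap, had 2 (6.16- and 4.76-fold), and the Notch ligand *Jag1* had 1 of 7.05-fold without Pol II.

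Among cell type lists, 6 of 16 neural stem cell genes were hosts with 15 peaks, of which 7 were those in the long *Fgfr2* record. Of 14 oligodendrocyte precursor genes 4 were hosts, with 7 peaks, and of 13 astrocyte genes 2 were, with *Slc1a3*, a glutamate transporter, carrying peaks of 10-fold and 3.34-fold in intron 3, both with Pol II. Of 20 myelin genes 1 was a host: *Mbp*, which encodes myelin basic protein, had 1 peak of 6.16-fold in intron 3 that overlapped WT Pol II, while its promoter had none. Of 8 microglia genes 0 were hosts.

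Cell adhesion and axon guidance genes, which are among the longest in the genome, were hosts in 13 of 25 cases with 17 peaks, among them *Cntn1* with 3, of which 1 (7.27-fold) was the only peak of any listed host that was also called in *Qk*-/- cells. The list had 1.37 peaks per Mb of intron, close to the 1.48 per Mb over all introns. Among the other lists with 5 or more peaks, the value was 1.02 for RNA-binding and splicing proteins, 1.87 for actin and cytoskeleton regulators, 2.27 for precursor genes, 3.59 for chromatin regulators, 5.02 for the transcription factor families, 5.68 for signalling and 7.62 for neural stem cell genes, which share hosts with the signalling list. Of 27 actin and cytoskeleton regulators 10 were hosts with 12 peaks, among them *Myh9*, a nonmuscle myosin, at 8.04-fold, and *Myo10*, an unconventional myosin, with 2. Of 25 chromatin regulators 8 were hosts with 12 peaks, among them *Hdac4* with 3 and *Chd7* with 2. RNA-binding and splicing genes were hosts in 4 of 32 cases: *Igf2bp2* with 2 peaks (8.1- and 6.02-fold), *Igf2bp3*, *Msi2* and *Rbfox1* with 1 each. Immediate early genes were hosts in 2 of 14 cases, *Junb* and *Klf6*.

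Of 21 genes of cholesterol biosynthesis 0 were hosts. These genes hold only 0.277 Mb of eligible intron, too little for the count to set them apart from the 4.67% of all genes, and all 22 listed had a Pol II peak at the promoter. Among 19 genes for the uptake, sensing or transport of sterols, only *Lrp1*, a lipoprotein receptor, was a host, with 1 peak of 6.99-fold that overlapped WT Pol II, which is 5.26% of the list and near the share over all genes. *Qk* itself had 0 intronic peaks in 101 kb of eligible intron, while its promoter had Pol II and Qki-5 peaks.

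Short sequence sites were next counted on both strands in the 201-bp windows. Nuclear factor I is a family of factors that bind the palindrome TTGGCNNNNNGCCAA. One side of it, the core TTGGCA, was present in 29.2% of the windows (26.9 to 31.5), against 9.75% of windows 1 kb to either side of the same summits, 9.85% of windows taken across all introns and 12.1% of windows at intronic Pol II peaks without Qki-5. Intergenic Qki-5 peaks had it in 28.4% and promoter Qki-5 peaks in 7.62%. The full palindrome was rare, with 3 windows of 1498. A shorter palindrome, TGGCNNNNNGCCA, added after seeing the data, was present in 3.27% of windows against 0.401% of the flanks.

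The E-box CAGCTG, bound by basic helix-loop-helix factors, was present in 26.1% (23.9 to 28.4) against 9.81% of the flanks and 7.69% across introns. The AP-1 site TGANTCA, bound by Fos and Jun dimers, was present in 11.3% (9.79 to 13.1) against 5.01% and 6.15%. The Sox site ACAAAG was present in 26.9% (24.7 to 29.2) against 16.8% and 17.9%, the Tead site GGAATG in 15.6% against 11% and 10.8%, and the Rfx core GTTGCC in 11% against 6.71% and 5.49%. At intergenic Qki-5 peaks the E-box was present in 27.0%, the AP-1 site in 11.6%, Sox in 24.7%, Tead in 17.1% and Rfx in 13.0%. At intronic Pol II peaks without Qki-5 the shares were, in the same order, 13.3%, 6.53%, 17.5%, 11.8% and 7.18%. The GC box GGGCGG was present in 8.41% (7.05 to 9.93) against 3.81% of the flanks, 1.8% across introns and 53.8% of promoter Qki-5 windows. The C/EBP string, the CCAAT box and the steroid receptor site were no more frequent than in the flanks. TTGCNNCAA, the string read for C/EBP, was present in 0.801% (0.415 to 1.4) against 1.9% of the flanks and 1.76% across introns. Only this spelling was counted, so C/EBP sites of another spelling or length were missed. Whether C/EBP sites gather at the summits was therefore not tested. The CCAAT box CCAAT was present in 22.1% against 23.2% and 27.5%, and the steroid receptor site AGAACA in 16% against 16.6% and 18.2%. The Nrf1 core GCGCNNGCGC was in 8 windows (0.534%, 0.231 to 1.05), against 0.334% of the flanks, 0.111% across introns and 9.49% of promoter Qki-5 windows. The CTCF core CCACNAGGNGGC was in 2 (0.134%, 0.0162 to 0.481), against 0.0334% of the flanks and 0.0534% across introns. Of the 1498 windows, 689 held none of the nuclear factor I core, E-box and AP-1 site, 630 held 1 of the 3 kinds, 169 held 2 and 10 held all 3. Some sites share letters: TTGGCAAC counts as a nuclear factor I core and an Rfx core, and ATTGGCA as a nuclear factor I core and a CCAAT box.

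**Figure D5:**
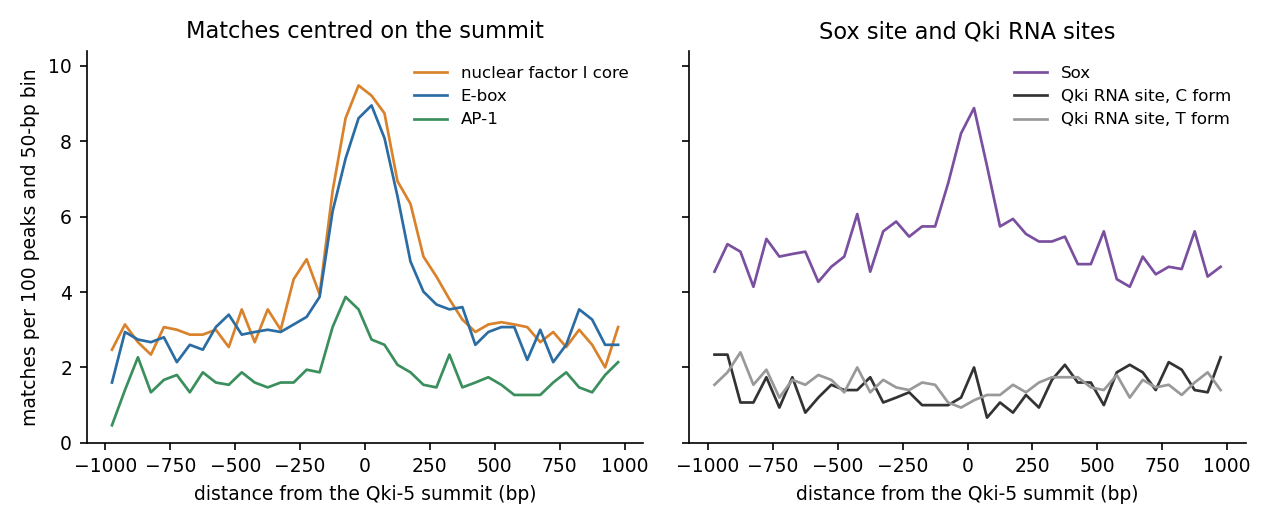
Matches per 100 intronic Qki-5 peaks in bins of 50 bp (y axis) by distance from the summit in bp (x axis), for the nuclear factor I core, E-box and AP-1 site (left) and for the Sox site and both forms of the Qki RNA site (right). The first 4 rise within about 100 bp of the summit and the Qki RNA sites do not.

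The site that Qki recognizes in RNA did not gather at the summits. ACTAAC, the core of that site, was present in 4.81% of windows (3.78 to 6.01), against 6.24% of the flanks and 6.84% across introns, and its variant ACTAAT in 4.21% against 5.97% and 8.24%. Read on the sense strand of the host gene, where the RNA would carry it, either form was present in 55 windows (3.67%). On the antisense strand it was present in 81 (5.41%). Windows across introns had 6.66% sense and 8.35% antisense. The flanks had 6.21% and 7.08% on one side of the summits and 5.41% and 6.34% on the other. The antisense share was thus the higher in each of these sets and is not particular to the Qki-5 peaks. Among peaks with Pol II the shares were 3.99% and 4.42%.

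Base composition also differed between the sets of windows. The windows had a median GC content of 52.2%, against 46.3% in the flanks, 42.3% across introns, 51.7% at intergenic and 67.7% at promoter Qki-5 peaks. Repeat-masked bases made up 10.1% of the windows and 29.9% of windows across introns. The part of GC content and repeats in the site counts was not tested, and a match is a run of letters and not a bound site.

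Sites were also counted by Pol II overlap and by strength. The nuclear factor I core was present in 27.0% of peaks with Pol II (24.1 to 29.9) and 32.7% without (28.9 to 36.8), and the E-box in 27.8% (25 to 30.8) and 23.3% (19.9 to 27.0). The core was present in 30.0% of the strongest 300 peaks and 32.0% of the weakest 300. Among the 26 peaks also called in *Qk*-/- cells, 3 windows held the core (11.5%, 2.45 to 30.2), 2 held the E-box and 1 held the AP-1 site.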

How the data were processed

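ChIP-seq was performed in WT and *Qk*-/- differentiated oligodendrocytes with 1 library per antibody and genotype. According to the methods, reads were trimmed, aligned with Bowtie2 and freed of duplicates, whereas the processing notes of the submitters list Bowtie 1.2.2 beside bcl2fastq, MACS2 2.1.2 and the build mm10. Peaks were called per library against input at a q-value of 0.05. For each peak the authors deposited the fold enrichment, a ratio of pileup to local background, with a −log10 p-value, a −log10 q-value and a score, which equals the −log10 q-value multiplied by 10. Peak names in the files begin with mNSC. Depth is unknown, because read totals are not part of the lists, and intervals cover the counting of peaks only.

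Overlap meant at least 1 bp. Where a summit lay in several genes, the host was the gene with a basic transcript over the summit, then a protein-coding gene, then the shortest. Comparison positions were taken every 1000 bp. Classes were compared by two-sided Fisher's exact tests with Benjamini-Hochberg adjustment over 4 tests (threshold 0.05). Python 3.11.15, pandas 2.3.3, numpy 2.4.6, scipy 1.17.1, pysam 0.24.0, samtools 1.23.1 and matplotlib 3.10.9 were used. Sequences were read from RefSeq GRCm38.p6, whose coordinates are those of mm10. Simulated peaks were assigned to the planted class in 800 of 800 cases. The peaks and gene lists were chosen with earlier results of these data known. Named were the 10 strongest peaks, the hosts with most peaks (10 and those tied with the 10th), the 10 strongest peaks also called in *Qk*-/- cells, the 10 under the strongest Pol II peaks, hosts in the lists and *Qk*. Named outside this rule, after their values were seen, were *9530059O14Rik*, *Zic1*, *Gse1* and *Hps3*. Alternatives were stricter q-value and fold limits, promoter windows of 1 kb and 5 kb, protein-coding genes only, other overlap rules, peaks in a single gene and other motif windows. Comprehensive transcripts, the exclusion of peaks called in *Qk*-/- cells, the shorter palindrome and the flanking windows were added after seeing the data. Some genes are not reported here.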

Additional observations from a re-analysis of the deposited data

How the results depend on the processing

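No paired analysis was possible because each antibody and genotype has 1 library, and none could be left out. The odds ratios for intronic against promoter peaks (WT Pol II and *Qk*-/- Qki-5) and for intronic against intergenic peaks (*Qk*-/- Qki-5) kept their direction and an adjusted p under 0.05 in each alternative run. For WT Pol II in intronic against intergenic peaks, the odds ratio of 1.24 fell to 1.03 with fold enrichment of at least 5 in every list and to 1.17 without peaks called in *Qk*-/- cells, and neither passed after adjustment. The number of peaks ranged from 1041 (fold of at least 5) to 1654 (promoter window of 1 kb), and the comprehensive annotation gave 1309 with 60.7% on WT Pol II. With fold of at least 5, the intronic share of WT Qki-5 peaks was 22.7%, WT Pol II overlap 38.8%, *Qk*-/- Pol II overlap 6.15%, and hosts with promoter Pol II and Qki-5 were 63.1% and 18.1%. With a 1-kb window the intronic share was 21.9%, *Qk*-/- Pol II overlap 12.2% and the median position 46.9%, and with 5 kb they were 16.3%, 8.3% and 53.2%, with 32.3% in the first intron. Protein-coding genes only gave an intronic share of 18.6% and 76.1% of hosts with promoter Pol II. Requiring the summit inside the other peak gave 57.1% for WT Pol II and 7.28% for *Qk*-/- Pol II, and requiring an overlap of 0.5 of the Qki-5 peak gave 57.6%, 6.94% and, for *Qk*-/- Qki-5, 0.868%. Of all alternative values for these results, 73 were unchanged, 19 moved and 2 were weaker. Unchanged meant within the interval, within 1.5 times the count or, for odds ratios, the same direction and side of the 0.05 threshold. Of the motif shares 26 stayed within their interval and 28 moved, all 28 with the window's width. The limits are 1 library per arm, unknown depth and peaks that share neighbours, so a peak not called says nothing of signal below the threshold.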

Other observations

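Chromosome X held few of the intronic Qki-5 peaks. It had 9 in 44.1 Mb of eligible intron, or 0.204 per Mb, while the autosomes had from 1.29 per Mb (chromosome 1) to 2.12 per Mb (chromosome 19). Intronic Pol II peaks were also fewest there, at 3.34 per Mb against 4.24 to 13.8 on the autosomes. As raw counts, which are not per length, chromosome X had 36 promoter Qki-5 peaks against 146 to 377 on the autosomes, and 45 intergenic Qki-5 peaks against 28 to 93.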
